A study of Homo sapiens with 9 samples.

Results

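The genes described here are 36 members of the ATF4 amino-acid response and the cytosolic tRNA synthetases, chosen by symbol from a list, with the synthetases under older symbols (AARS is now AARS1). All 36 were found among the 19389 genes of the table and all 36 passed the filter on low values, with a lowest value of 1.54 in any library. They were divided by role into 7 regulators, 5 stress outputs, 10 enzymes of amino acid and one-carbon synthesis, 3 genes of amino acid transport and 11 tRNA synthetases. They were measured in SW1353, an established human chondrosarcoma line used as a model of chondrocytes, in 3 groups of 3 libraries. All cells were cultured for 24 h before treatment. The first group was untreated, and the labels do not say whether it received a vehicle. The second was exposed for 20 h to 20 ng/mL of IL-1β (interleukin-1β), a cytokine that drives inflammation in joints. The third was given PBSL, made from Protaetia brevitarsis seulensis beetle larvae, 2 h ahead of an equal IL-1β exposure. The protocol lists PBSL at 50, 100 and 200 µg/mL without saying which was sequenced, and no group received PBSL alone. SW1353 is 1 line, and nothing says that replicates were separate cultures, so every p measures only the spread between these libraries, which may be technical.

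ATF4 is a transcription factor made when phosphorylation of the initiation factor eIF2 slows translation of most mRNAs but favours that of ATF4. The kinases that start this integrated stress response sense amino acid shortage, stress in the endoplasmic reticulum, double-stranded RNA or heme deficiency. ATF4 pairs with C/EBP proteins on a composite DNA element, the C/EBP-ATF response element (CARE), and raises genes that make, import and load amino acids onto tRNAs, while DDIT3 (CHOP) and TRIB3 tie the response to cell death and feedback. Transcript levels do not show how much ATF4 protein was made.

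The CARE letters TGATGNAA were searched on both strands in RefSeq promoters, from 250 bases before to 50 after the annotated start. Promoters were matched for 29 of the 36 members, and 9 of them (31.0%) held a match, against 3.62% of all 35116 promoters. The matches lay mostly in the tRNA synthetases, in 6 of 10 matched promoters, while 0 of 9 matched promoters of the other cytosolic synthetases and their scaffold proteins held one. The other 3 members with a match were ASNS, CHAC1 and SLC3A2. The members were chosen as part of the ATF4 response, so a larger share with its element may come from the choice itself. The 35116 promoters are also a different set from the 19389 genes of the table. Differences between these shares were not tested. A match is a description of the letters and not evidence of binding, and a promoter without one may carry an element outside this window.

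ASNS is shown at greater length because its match is followed by GTTACA, the second part of its nutrient-sensing unit, which was found in 6.66% of all promoters. Capitals mark both parts. The first letter of the CARE match lay 68 bases upstream of the start and that of GTTACA 48 bases upstream, in GRCh38.p14.
ASNS (chr7:97872431-97872496, minus strand): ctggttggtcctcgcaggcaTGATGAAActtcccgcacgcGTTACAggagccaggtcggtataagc

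The remaining stretches, of 30 bases or fewer around the match in capitals, show each match with its surroundings. The search fixed every letter but N, so the likeness of the capitals follows from it. Read on the opposite strand, TTGCATCA is TGATGCAA.
AARS (chr16:70289675-70289704, minus strand): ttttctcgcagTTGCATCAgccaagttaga
CARS (chr11:3057407-3057436, minus strand): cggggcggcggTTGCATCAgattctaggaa
IARS (chr9:92293692-92293721, minus strand): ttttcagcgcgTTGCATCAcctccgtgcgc
MARS (chr12:57488053-57488082, plus strand): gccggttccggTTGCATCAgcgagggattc
TARS (chr5:33440956-33440985, plus strand): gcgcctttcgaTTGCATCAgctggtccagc
NARS (chr18:57621804-57621833, minus strand): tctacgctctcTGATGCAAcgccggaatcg
CHAC1 (chr15:40953251-40953280, plus strand): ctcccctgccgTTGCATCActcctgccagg
SLC3A2 (chr11:62881725-62881748, plus strand): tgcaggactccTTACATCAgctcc

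Summed values per library ran from 523758 to 553196, and 11562 to 11727 genes reached 1. CXCL8, a neutrophil attractant used as a check of IL-1β exposure, was called higher in both IL-1β groups, and all 7 genes of that check list were. VIM, a mesenchymal marker, lay between 2997 and 3403, while THY1 of the same list, not tested, did not exceed 0.101. The cartilage collagens COL2A1 and COL9A1 lay at no more than 0.027 and 0.013. Among the other cartilage markers SOX9 lay between 8.0 and 12.8. COL11A1, HAPLN1, ACAN, MATN3 and COMP reached 3.73, 2.85, 2.15, 1.11 and 0.297. The epithelial keratins KRT8 and KRT18 reached 41.6 and 103.8, while EPCAM, CDH1 and KRT19 did not exceed 0.489, 0.341 and 7.95. Of the leukocyte markers tested, CSF1R lay between 2.69 and 3.81 and CD3E between 0.61 and 1.32, while PTPRC, not tested, did not exceed 0.393. In bulk RNA, fewer cells with a transcript and less transcript per cell cannot be told apart.

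What IL-1β did to these genes without PBSL was read from IL-1β against untreated libraries. After 20 h of IL-1β, 29 of the 36 members rose and 1, CTH, fell, where 16.2% of all tested genes were called higher and 16.0% lower. The median log2 fold change over the members was 0.34, beside -0.005 over all genes tested. The increases were modest except in CEBPB and DDIT4: all other calls upwards were under 2-fold on the fitted scale, and they ran down to 0.15 in NARS. All 5 stress outputs, all 3 transport genes, 6 of 7 regulators, 9 of 11 synthetases and 6 of 10 synthesis enzymes rose. The 3 IL-1β libraries lay wholly above the untreated ones for 31 members, and 25.7% of all tested genes had that order. They lay wholly below for 1 member (27.1% of all tested genes), so 32 members did not overlap, beside 52.8% of all tested genes. Without 1 library at a time, between 23 and 30 members were called higher, while 24.7% to 35.9% of all tested genes were called in either direction. Cell type markers moved in the same comparison. Of 4 tested cartilage markers 3 fell, among them SOX9, a chondrocyte transcription factor (-0.41, adjusted p = 0.00114), HAPLN1 (-1.10, adjusted p = 0.000213) and COL11A1 (-0.37, adjusted p = 0.0121), and ACAN rose (0.69, adjusted p = 0.000348). The epithelial keratins KRT8 (-1.09, adjusted p = 1.32e-06) and KRT18 (-0.85, adjusted p = 2.1e-05) fell, and summed epithelial markers went from 137 to 154 per untreated library down to 72.7 to 73.9. Of 5 tested mesenchymal markers 2 rose, with sums of 5860 to 6160 in untreated and 6930 to 7020 in IL-1β libraries. Of 2 tested leukocyte markers CSF1R rose (0.33, adjusted p = 0.00386) and CD3E fell (-0.33, adjusted p = 0.0131). The part of these markers in the members' values was not tested.

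The second comparison asked what PBSL added in cells given IL-1β. With PBSL, 25 of the 36 members fell and 1, ATF5, rose, where 11.0% of all tested genes were called lower and 11.5% higher. The median log2 fold change over the members was -0.34, beside 0.008 over all genes tested. By role, 8 of 10 synthesis enzymes, 3 of 3 transport genes, 5 of 7 regulators, 6 of 11 synthetases and 3 of 5 stress outputs fell. The PBSL libraries lay wholly below the IL-1β ones for 28 members, an order that 20.1% of all tested genes had, and above them for 1 (21.7% of all tested genes), so 29 members did not overlap between these groups, beside 41.8% of all tested genes. This comparison and the first share the IL-1β libraries, so a high IL-1β value moves both in opposite directions, and each is given by its own values.

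The PBSL libraries differed among themselves. PBSL 1 was the one nearest to the IL-1β mean for 29 of all 36 members (80.6%), and for 58.0% of all tested genes. Among the 25 members that fell, PBSL 1 was nearest for 22. The median of the members, relative to the untreated mean on the log2 scale, was 0.195 in PBSL 1, -0.077 in PBSL 2 and 0.096 in PBSL 3, against 0.329 to 0.379 in the IL-1β libraries. Without PBSL 1, 26 members were called lower, and without PBSL 2, 17 were. Calls over all genes moved more: 22.5% were called in either direction with all libraries, 32.9% without PBSL 1, 12.1% without PBSL 2, and from 11.0% to 12.2% when any of the 3 IL-1β libraries was left out, with 17 to 19 members lower. After upper-quartile rescaling 38.6% of all called genes were higher, against 51.0% as deposited, while 26 members were called lower and 1 higher. Of 5 tested mesenchymal markers 4 fell with PBSL, COL1A1 (collagen I) from 1562.8 ± 15.1 to 956.2 ± 186.0 (SD, n = 3), and the summed markers of that list moved from 6930 to 7020 down to 5450 to 6130 per library. Of 4 tested cartilage markers 1 fell, COL11A1 (-0.48, adjusted p = 0.00697), and of 2 tested epithelial markers 1 fell, KRT8 (-0.26, adjusted p = 0.0476). Neither of the 2 tested leukocyte markers was called. The part of these markers in the members' values was not tested.

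The third comparison set PBSL plus IL-1β against untreated cells. Here 8 members were higher and 4 lower, 12 in all, where 41.6% of all tested genes were called, 22.3% higher and 19.3% lower, so the members' shares were near or below those of all genes. The median over the members was 0.078, beside 0.031 over all genes tested. The 8 higher members were CEBPB, STC2, ATF5, SHMT2, VLDLR, DDIT3, CEBPG and TARS, and the 4 lower ones CTH, PYCR1, ALDH1L2 and PHGDH. The remaining 24 were not called, which does not show that they equalled untreated cells. These counts depended on single PBSL libraries: 7 were higher and 9 lower without PBSL 1, and 15 were higher and 2 lower without PBSL 2. Of all tested genes, 45.4% were called in either direction without PBSL 1 and 36.9% without PBSL 2. Members gained without PBSL 1 were ASNS, CARS, CHAC1, PSAT1 and SARS as lower and NARS as higher. Those gained without PBSL 2 were ATF4, DDIT4, EPRS, IARS, MTHFD2, NARS and WARS, all as higher. After upper-quartile rescaling 38.6% of all called genes were higher, against 53.5% as deposited, and 6 members were higher and 7 lower. Cell type markers differed here too. Of 5 tested mesenchymal markers 1 was higher and 3 were lower, and of 4 cartilage markers 1 was higher and 3 were lower. Both of the 2 tested epithelial markers were lower, and of 2 leukocyte markers 1 was higher and 1 lower. Their part in the members' values was not tested.

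**Figure D1:**
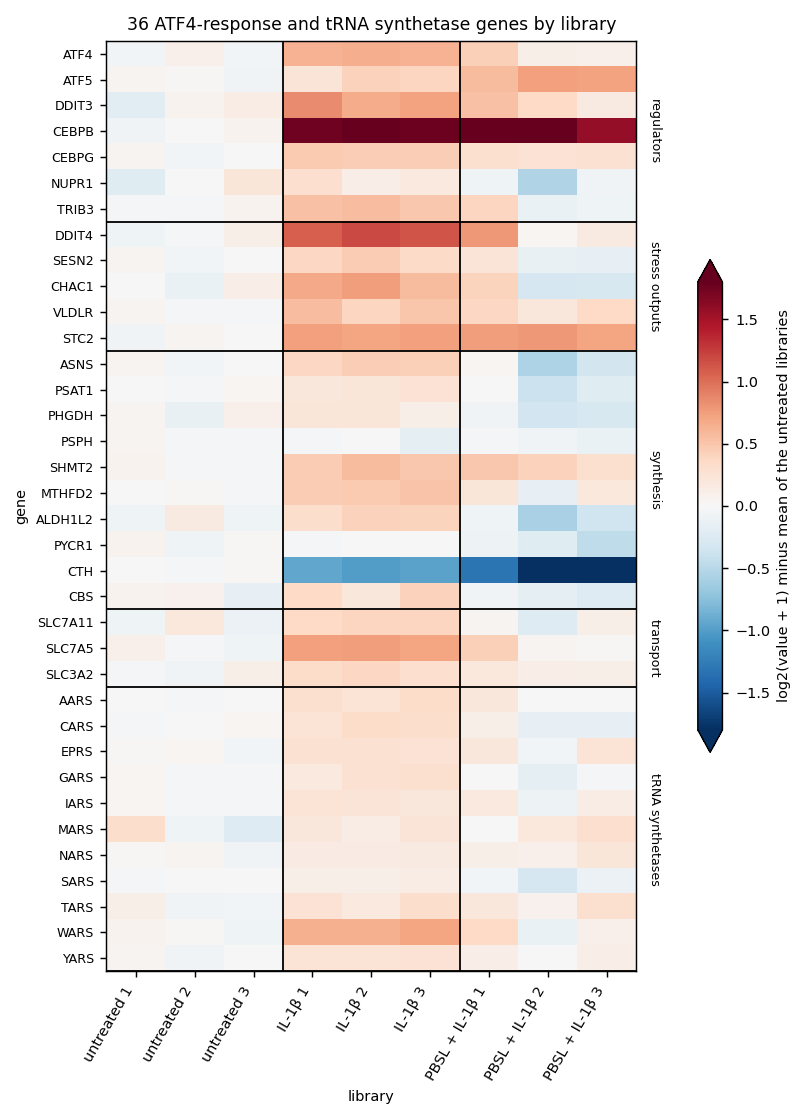
Heat map of log2(value + 1) minus the mean of the 3 untreated libraries, for 36 genes (rows, divided by role) in 9 libraries (columns), with colours that saturate at the ends of the scale. Most rows are red in the 3 IL-1β libraries and paler or blue in PBSL 2 and PBSL 3, with PBSL 1 in between, while CEBPB and STC2 stay red, ATF5 deepens and CTH turns darker blue.

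**Figure D2:**
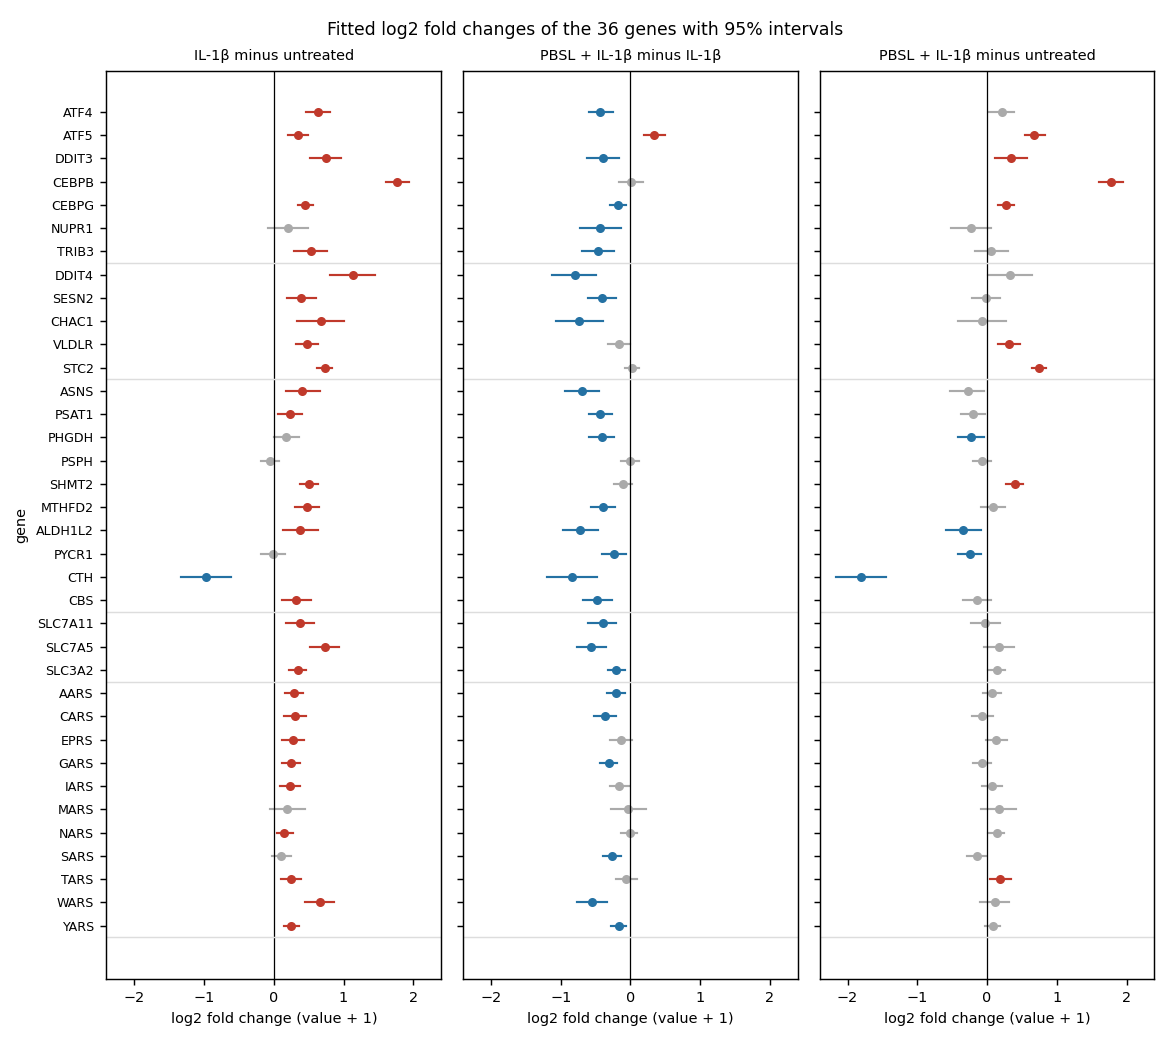
Fitted log2 fold changes (points) with 95% intervals (lines) for the 36 genes in the 3 comparisons, red for called higher, blue for called lower and grey for not called. The first panel has 29 red points and 1 blue, the second 25 blue and 1 red, and the third 8 red and 4 blue.

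Among the regulators, ATF4 itself rose with IL-1β and fell with PBSL. ATF4, on chromosome 22 (39519695 to 39522685), stood at 172.6, 189.9 and 172.7 in untreated libraries 1 to 3, at 274.3, 280.7 and 276.1 with IL-1β, and at 239.9, 191.1 and 190.7 with PBSL and IL-1β. The 3 groups did not overlap, although PBSL 2 and PBSL 3 lay just above the highest untreated library. On the log2 scale the difference was 0.63 for IL-1β (SE 0.0807, adjusted p = 8.81e-05) and -0.43 for PBSL (SE 0.0807, adjusted p = 0.00526). PBSL plus IL-1β against untreated cells gave 0.21 (95% interval 0.03 to 0.38, adjusted p = 0.0572), a difference that was called without PBSL 2 (adjusted p = 0.0359) or PBSL 3 (adjusted p = 0.0309), with p from 0.0309 to 0.209 over the alternative settings run, which is the range given for other genes below.

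DDIT3, or CHOP, a C/EBP-family factor of prolonged stress, read 13.0, 15.8 and 16.5 in untreated libraries, 27.9, 24.5 and 25.5 with IL-1β, and 22.2, 19.5 and 16.9 with PBSL. Every PBSL library lay between the untreated and the IL-1β libraries. It rose by 0.75 with IL-1β (SE 0.103, adjusted p = 0.000167), and its PBSL change was -0.40 (SE 0.103, adjusted p = 0.0194). The fall was no longer called when IL-1β 1 or 3 was left out (adjusted p = 0.0762 and 0.053), or PBSL 2 or 3 (adjusted p = 0.056 and 0.0657), and with no filter (adjusted p = 0.0529), with p from 0.0038 to 0.0762. Its higher level against untreated cells (0.35, adjusted p = 0.0182) was lost without untreated 1 (adjusted p = 0.0756) or PBSL 1 (adjusted p = 0.0565), and after upper-quartile rescaling (adjusted p = 0.054), with p from 0.00608 to 0.0756. DDIT3 lies on the minus strand of chromosome 12 (57516588 to 57521737) and overlaps the plus-strand MARS gene by 982 bases. If counting ignored strand, which is not known, reads there could not be assigned to either gene alone.

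TRIB3, a pseudokinase that feeds back on ATF4, went from 13.9, 13.8 and 14.8 to 20.9, 21.3 and 20.2 with IL-1β, and stood at 18.8, 13.0 and 13.3 with PBSL. PBSL 1 lay near the IL-1β libraries and the other two below every untreated one. It rose by 0.53 (SE 0.108, adjusted p = 0.00269) and its PBSL change was -0.46 (SE 0.108, adjusted p = 0.0123), a call lost without PBSL 2 (adjusted p = 0.0522, in a range of 4.69e-05 to 0.0522). CEBPG, a dimer partner of ATF4, was at 14.4, 13.4 and 13.8, then 19.5, 19.3 and 19.2, then 17.1, 16.8 and 17 with PBSL. Its 3 groups were separate, with changes of 0.45 for IL-1β (adjusted p = 3.81e-05) and -0.18 for PBSL (adjusted p = 0.0284). The CEBPG call with PBSL was lost without IL-1β 1, 2 or 3 or PBSL 2 (adjusted p = 0.0977, 0.091, 0.0829 and 0.0633 respectively) and in the fit with a replicate block (adjusted p = 0.0601), with p from 0.0126 to 0.0977.

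CEBPB was not called with PBSL, and ATF5 rose. CEBPB, a C/EBP factor of inflammation as well as of ATF4 signalling, stood at 36.1, 37.7 and 39.6 in untreated libraries, 129.4, 134.8 and 130.6 with IL-1β, and 137.4, 146.0 and 115.3 with PBSL. It had the largest IL-1β change of the members, 1.77 (SE 0.0765, adjusted p = 8.15e-09), while the PBSL libraries lay on both sides of the IL-1β ones (0.01, 95% interval -0.16 to 0.18, adjusted p = 0.958). ATF5, a factor with its own stress-controlled translation, read 27.6, 27.0 and 25.6, then 31.4, 36 and 35.1, then 40.3, 45.3 and 44.9. It rose by 0.34 with IL-1β (SE 0.0665, adjusted p = 0.002) and by a further 0.34 with PBSL (SE 0.0665, adjusted p = 0.00592), with no overlap between the 3 groups. NUPR1, a small chromatin-associated stress protein, had means of 30.6 ± 4.84, 35.0 ± 2.29 and 26.0 ± 4.77 (SD, n = 3) in the 3 groups, overlapped between untreated and IL-1β libraries, and was lower with PBSL (-0.43, adjusted p = 0.0357). That NUPR1 call was lost without untreated 2 (adjusted p = 0.0529), without IL-1β 1, 2 or 3 (adjusted p = 0.117, 0.0688 and 0.0821) and without PBSL 2 (adjusted p = 0.119), and with no filter (adjusted p = 0.09), with p from 0.0182 to 0.119.

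The ATF5 promoter was the 1 of 29 matched member promoters that held an interferon-stimulated response element, searched on both strands as a pair of GAAA blocks with any 2 bases between them, which 3.57% of all promoters held. It is shown because interferon-response genes moved in these libraries. Of 20 such genes, 20 rose with IL-1β (16.2% of all tested genes did) and 18 fell with PBSL (11.0% did). ATF5 rose in both. Upstream of the start, 2 overlapping matches are in capitals. The promoter held 3 matches in all, and the other, not shown, began at base 8 from the start. Their part in the ATF5 values was not tested.
ATF5 (chr19:49928795-49928850, plus strand): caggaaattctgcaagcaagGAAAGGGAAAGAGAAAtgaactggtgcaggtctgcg

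All 5 stress outputs rose with IL-1β, and 3 of them fell with PBSL. DDIT4, an inhibitor of the growth kinase complex mTORC1 also known as REDD1, stood at 49.5, 51.7 and 56.4 in untreated libraries, 111.2, 120.6 and 116.3 with IL-1β, and 90.6, 54.0 and 58.6 with PBSL. IL-1β raised it above every other library, and PBSL 2 and PBSL 3 lay within or just above the untreated range. The log2 fold change was 1.13 (SE 0.145, adjusted p = 9.56e-05) for IL-1β and -0.80 (SE 0.145, adjusted p = 0.00453) for PBSL. CHAC1, which degrades glutathione, was at 15.8, 14.4 and 17.2, then 25.9, 27.3 and 23.8, then 21.1, 12.6 and 12.7. Again PBSL 1 lay between the groups, and the other two lay below every untreated library. Its changes were 0.67 (SE 0.154, adjusted p = 0.00578) and -0.74 (SE 0.154, adjusted p = 0.00799). Against untreated cells CHAC1 was called lower without PBSL 1 (-0.30, adjusted p = 0.0101, in a range of 0.0101 to 0.982) and not with all libraries (-0.07, adjusted p = 0.752).

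SESN2, or sestrin 2, a leucine sensor upstream of mTORC1, went from 10.8, 9.94 and 10.4 to 13.7, 14.6 and 13.5, and stood at 12.4, 9.38 and 9.23 with PBSL. It rose by 0.39 (adjusted p = 0.0068) and its PBSL change was -0.41 (adjusted p = 0.0112), which places the PBSL mean at 10.3 ± 1.77 beside 10.4 ± 0.42 in untreated cells (SD, n = 3). The remaining stress outputs were not called with PBSL. VLDLR, a lipoprotein and reelin receptor, read 5.17, 4.90 and 4.82, then 7.72, 6.79 and 7.40, then 6.73, 5.87 and 6.62 with PBSL. The PBSL libraries lay below the IL-1β ones, without a call (-0.17, 95% interval -0.32 to -0.01, adjusted p = 0.119), and VLDLR stayed above untreated cells (0.31, adjusted p = 0.00472). STC2, the secreted glycoprotein stanniocalcin 2, read 87.2, 94.3 and 91.3, then 152.1, 149.5 and 151.8, then 153.2, 157.4 and 149.6. It rose by 0.73 with IL-1β (SE 0.047, adjusted p = 2.84e-07), and the interval of its PBSL change, -0.08 to 0.12, was narrow (adjusted p = 0.786).

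**Figure D3:**
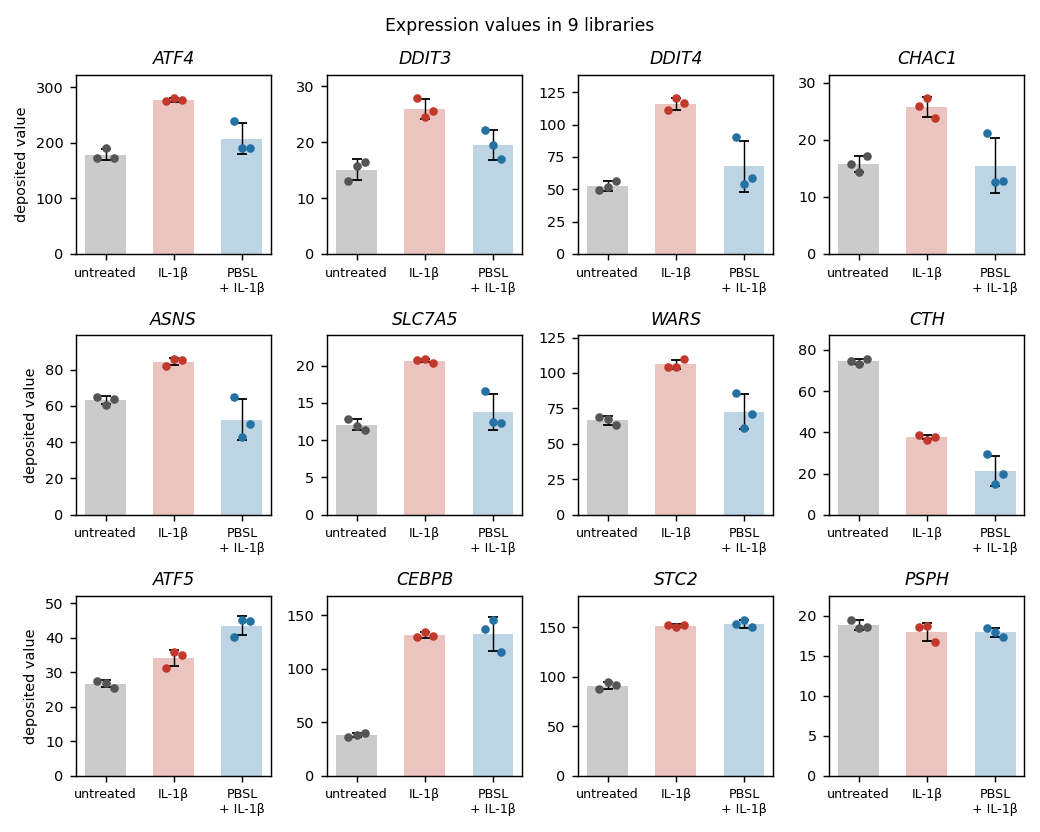
Deposited expression values of 12 members in 9 libraries (points), with group means (bars from 0) and SD (whiskers, n = 3). ATF4, DDIT3, DDIT4, CHAC1, ASNS, SLC7A5 and WARS are highest with IL-1β, with PBSL 1 the highest of the PBSL libraries, while CTH falls in both steps, ATF5 rises in both, CEBPB and STC2 stay up with PBSL and PSPH is flat.

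In amino acid synthesis, the asparagine enzyme rose with IL-1β and fell with PBSL. ASNS, which makes asparagine from aspartate, stood at 65.0, 60.6 and 63.5 in untreated libraries, 82.0, 85.9 and 85.0 with IL-1β, and 64.8, 42.6 and 50.0 with PBSL. PBSL 2 and PBSL 3 lay below every untreated library and PBSL 1 within the untreated range. It rose by 0.41 with IL-1β (SE 0.112, adjusted p = 0.0139) (adjusted p = 0.0509 when untreated 2 was left out, the highest of a range from 2.74e-05), and its PBSL change was -0.70 (SE 0.112, adjusted p = 0.0036). Against untreated cells ASNS gave -0.28 (95% interval -0.53 to -0.04, adjusted p = 0.0629), and it was called lower without PBSL 1 (-0.44, adjusted p = 0.000338) and after upper-quartile rescaling (adjusted p = 0.0302), with p from 0.000338 to 0.237.

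The serine pathway runs from PHGDH through PSAT1 to PSPH, and differences between its 3 enzymes were not tested. PSAT1 read 108.6, 105.1 and 110.2, then 124.5, 126.2 and 128.9, then 107.4, 82.3 and 92.9. Its PBSL change was -0.43 (SE 0.0778, adjusted p = 0.00456), and PBSL 2 and PBSL 3 lay below the untreated range. Against untreated cells PSAT1 (-0.20, adjusted p = 0.0547) was called lower without PBSL 1 (adjusted p = 0.00143) and with median-ratio (adjusted p = 0.0396) or upper-quartile rescaling (adjusted p = 0.0188). The IL-1β increase of PSAT1 (0.23, adjusted p = 0.043) was lost without each of untreated 1, 2 and 3 (adjusted p = 0.0912, 0.119 and 0.0767) and IL-1β 1, 2 and 3 (adjusted p = 0.0854, 0.0984 and 0.121), with upper-quartile rescaling (adjusted p = 0.0836), with no filter (adjusted p = 0.0795) and for limma without trend (adjusted p = 0.0637), with p from 0.000649 to 0.121. PHGDH, the first enzyme, had means of 39.9 ± 3.33, 45.4 ± 1.98 and 34.0 ± 3.79 (SD, n = 3), with no call for IL-1β (0.18, adjusted p = 0.114) and a fall with PBSL (-0.41, adjusted p = 0.00656). PHGDH was called higher with IL-1β with only the 6 libraries of the comparison (adjusted p = 0.0387) and without PBSL 1 (adjusted p = 0.046), with p from 0.0387 to 0.356. The PHGDH difference from untreated cells (-0.23, adjusted p = 0.0434) was lost without untreated 1 or 3, IL-1β 1, 2 or 3, or PBSL 2 or 3 (adjusted p = 0.118, 0.154, 0.0591, 0.0592, 0.0541, 0.148 and 0.111 respectively), with no filter (adjusted p = 0.0771), for limma without trend (adjusted p = 0.0585) and with only the 6 libraries (adjusted p = 0.0798), with p from 0.00443 to 0.154. PSPH, the last step, had 18.8 ± 0.599, 18.0 ± 1.14 and 17.9 ± 0.579 (SD, n = 3), and the intervals of its changes were -0.19 to 0.07 for IL-1β and -0.14 to 0.12 for PBSL.

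The mitochondrial folate enzymes use serine to supply one-carbon units. SHMT2, which splits serine to glycine, read 91.8, 86.1 and 85.8, then 121.2, 130.5 and 123.6, then 123.4, 116.9 and 107.9, and MTHFD2, the next enzyme, 66.3, 67.1 and 65.4, then 91.1, 92.5 and 94.6, then 77.1, 59.8 and 75.4. Both rose with IL-1β, SHMT2 by 0.50 (adjusted p = 4.4e-05) and MTHFD2 by 0.48 (adjusted p = 0.000724). With PBSL MTHFD2 fell (-0.39, adjusted p = 0.00719) and SHMT2 overlapped its IL-1β values (-0.11, 95% interval -0.24 to 0.02, adjusted p = 0.205) and stayed above untreated cells (0.40, adjusted p = 0.000253). Whether the PBSL changes of SHMT2 and MTHFD2 differ was not tested. ALDH1L2, which oxidises formyl-folate in mitochondria, was low at 5.03, 6.09 and 5.03, then 6.96, 7.47 and 7.41, then 5.05, 3.25 and 3.97, and its PBSL change was -0.72 (SE 0.115, adjusted p = 0.0036). The ALDH1L2 rise with IL-1β (0.38, adjusted p = 0.0245) was lost without untreated 1 or 3 (adjusted p = 0.0853 and 0.0838) and without IL-1β 2 or 3 (adjusted p = 0.0735 and 0.0716), and with no filter (adjusted p = 0.0607), with p from 0.00289 to 0.0853. Its lower level against untreated cells (-0.34, adjusted p = 0.0335) was lost without untreated 2, PBSL 2 or PBSL 3 (adjusted p = 0.129, 0.126 and 0.0766) and in the fit with a replicate block (adjusted p = 0.0533), with no filter (adjusted p = 0.0747) and with only the 6 libraries (adjusted p = 0.0637), with p from 0.00229 to 0.129.

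CTH, the cystathionine γ-lyase that makes cysteine in the last step of transsulfuration, was the exception among the members. CTH, on chromosome 1 (70411218 to 70439851), stood at 74.7, 73.2 and 75.7 in untreated libraries, 38.5, 36.5 and 37.7 with IL-1β, and 29.4, 14.9 and 19.6 with PBSL. The 3 groups were separate and each step was downward. CTH fell by 0.97 with IL-1β (log2 fold change -0.97, SE 0.166, adjusted p = 0.000802) and its PBSL change was -0.84 (SE 0.166, adjusted p = 0.00614). Against untreated cells the mean value was 0.286 times as high, or -1.81 on the log2 scale (SE 0.166, adjusted p = 5.78e-06). CBS, the enzyme just before CTH, was scarce at 2.10, 2.15 and 1.69, then 2.80, 2.42 and 2.98, then 1.85, 1.66 and 1.54. CBS rose by 0.32 with IL-1β (adjusted p = 0.0185), which was lost without untreated 3 (adjusted p = 0.0815), IL-1β 1 (adjusted p = 0.0628) or IL-1β 3 (adjusted p = 0.083), with p from 0.0118 to 0.083, and its PBSL change was -0.48 (adjusted p = 0.00589).

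PYCR1, which makes proline in mitochondria, read 114.6, 103.9 and 111.4, then 107.6, 110.2 and 108.9, then 102.7, 94.7 and 80.1. It overlapped between untreated and IL-1β libraries (-0.01, 95% interval -0.18 to 0.16, adjusted p = 0.924), and all 3 PBSL libraries lay below both groups. The PYCR1 call with PBSL (-0.24, adjusted p = 0.0459) was lost without untreated 1, 2 or 3 (adjusted p = 0.0561, 0.0549 and 0.0599), IL-1β 1, 2 or 3 (adjusted p = 0.101, 0.125 and 0.111), PBSL 2 or PBSL 3 (adjusted p = 0.0799 and 0.104), and in the fit with a replicate block (adjusted p = 0.0561), with no filter (adjusted p = 0.0903), for limma without trend (adjusted p = 0.0661) and with only the 6 libraries (adjusted p = 0.0749), with p from 0.00554 to 0.125. The lower PYCR1 level against untreated cells (-0.25, adjusted p = 0.0219) was lost without untreated 1 or 3 (adjusted p = 0.0751 and 0.0649), and with only the 6 libraries (adjusted p = 0.0517), with p from 0.00274 to 0.0751.

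The transport genes encode both chains of amino acid exchangers. SLC7A5, or LAT1, which imports leucine and other large neutral amino acids, stood at 12.9, 11.9 and 11.4 in untreated libraries, 20.7, 20.9 and 20.4 with IL-1β, and 16.6, 12.5 and 12.3 with PBSL. It rose by 0.73 (SE 0.0958, adjusted p = 0.000112) and its PBSL change was -0.56 (SE 0.0958, adjusted p = 0.00405), with PBSL 2 and PBSL 3 inside the untreated range. SLC7A11, or xCT, which imports cystine, read 21.1, 25.6 and 20.8, then 29, 29.5 and 29.6, then 23.2, 18.9 and 24.1. Its changes were 0.38 (adjusted p = 0.00915) and -0.40 (adjusted p = 0.012), and its PBSL libraries overlapped the untreated ones. SLC3A2, the heavy chain that both partners need at the membrane, read 121.4, 119.2 and 133.4, then 157.3, 161.8 and 154.1, then 141.6, 135.5 and 134.6. It rose by 0.34 (adjusted p = 0.000435) and its PBSL change was -0.20 (adjusted p = 0.0213), which was lost without IL-1β 1, 2 or 3 (adjusted p = 0.0683, 0.091 and 0.0535) or PBSL 2 (adjusted p = 0.0587), with p from 0.0114 to 0.091. SLC3A2 in PBSL cells was above every untreated library without a call (0.14, adjusted p = 0.0547), and it was called when untreated 3 was left out (adjusted p = 0.021, with p from 0.021 to 0.334).

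Cytosolic tRNA synthetases join each amino acid to its tRNA. On the length-scaled values, GARS (glycine) was the most abundant of the 11 in untreated cells at 226.2 ± 5.65, followed by IARS (isoleucine) at 88.8 ± 1.97 and SARS (serine) at 85.9 ± 0.941, which did not overlap each other but both lay inside the range of MARS, and CARS (cysteine) was the least abundant at 25.5 ± 0.741 (SD, n = 3). WARS, the tryptophan enzyme, which interferon is known to induce, changed most. WARS, on chromosome 14 (100333788 to 100376805), stood at 69.3, 67.3 and 63.2 in untreated libraries, 104.0, 104.0 and 110.0 with IL-1β, and 86.0, 61.2 and 71.1 with PBSL. PBSL 1 lay between the groups and PBSL 2 below every untreated library. It rose by 0.66 with IL-1β (SE 0.0964, adjusted p = 0.000247), more than any other synthetase, and its PBSL change was -0.55 (SE 0.0964, adjusted p = 0.00417). The WARS promoter held no CARE match and no interferon-stimulated response element in the window searched. Whether the interferon-response genes that moved in the same directions had a part in the WARS values was not tested.

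The other synthetases rose by 0.15 to 0.30 with IL-1β where called. AARS (alanine) read 44.9, 43.9 and 44.6, then 54.6, 53.0 and 56.0, then 51.4, 44.6 and 44.8, and CARS 24.7, 25.5 and 26.2, then 30.3, 32.4 and 32.0, then 27.5, 22.8 and 22.8. In both, the IL-1β libraries were the highest and PBSL 2 and PBSL 3 lay within or below the untreated range. AARS had changes of 0.29 (adjusted p = 0.00297) and -0.21 (adjusted p = 0.0253), and CARS of 0.30 (adjusted p = 0.0076) and -0.37 (adjusted p = 0.00616). GARS read 232.8, 222.7 and 223.3, then 254.7, 272.5 and 277.0, then 224.9, 199.4 and 222.5, with changes of 0.24 (adjusted p = 0.00663) and -0.31 (adjusted p = 0.00478). YARS (tyrosine) read 54.2, 50.4 and 53.0, then 62.4, 62.7 and 63.2, then 57.1, 52.9 and 57.2, with changes of 0.25 (adjusted p = 0.0025) and -0.17 (adjusted p = 0.0342). The PBSL calls of AARS and YARS were the least firm. That of AARS was lost without IL-1β 1, 2 or 3 (adjusted p = 0.0786, 0.0588 and 0.098) or PBSL 2 or 3 (adjusted p = 0.0825 and 0.0685), and with only the 6 libraries (adjusted p = 0.0547), with p from 0.00149 to 0.098, and that of YARS without IL-1β 1, 2 or 3 (adjusted p = 0.0939, 0.104 and 0.11) or PBSL 2 (adjusted p = 0.0977), and in the fit with a replicate block (adjusted p = 0.0564), for limma without trend (adjusted p = 0.0558) and with only the 6 libraries (adjusted p = 0.058), with p from 0.0151 to 0.11.

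SARS and TARS were each called in 1 of the first 2 comparisons. SARS read 84.8, 86.6 and 86.3, then 92.2, 92.7 and 94.2, then 83.2, 69.4 and 80.1, with no call for IL-1β (0.11, 95% interval -0.02 to 0.25, adjusted p = 0.191), although its IL-1β libraries lay above every untreated one and it was called with only the 6 libraries of the comparison (adjusted p = 0.02, with p from 0.02 to 0.358). Its PBSL change was -0.26 (adjusted p = 0.0134), lost without IL-1β 3 (adjusted p = 0.0527, in a range of 0.00249 to 0.0527), and all 3 PBSL libraries lay below the untreated ones. That difference of SARS from untreated cells (-0.15, adjusted p = 0.075) was called without PBSL 1 (adjusted p = 0.0176) and with median-ratio (adjusted p = 0.0472) or upper-quartile rescaling (adjusted p = 0.0194). TARS (threonine) read 72.5, 64.1 and 65.1, then 80.3, 75.9 and 83.5, then 77.8, 71.0 and 82.0. It rose with IL-1β (0.25, adjusted p = 0.0151), which was lost without untreated 2 or 3 (adjusted p = 0.0615 and 0.0581) or IL-1β 1 or 3 (adjusted p = 0.0508 and 0.0708), with p from 0.00545 to 0.0708, and PBSL libraries overlapped the IL-1β ones (-0.06, adjusted p = 0.59). The TARS level with PBSL was above that of untreated cells (0.19, adjusted p = 0.0402) with overlapping libraries, and this was lost without untreated 2 or 3, IL-1β 1 or 3, or PBSL 1 or 3 (adjusted p = 0.133, 0.124, 0.0594, 0.0519, 0.0702 and 0.12 respectively) and with either rescaling (adjusted p = 0.0577 for median-ratio and 0.155 for upper-quartile), with no filter (adjusted p = 0.0625), for limma without trend (adjusted p = 0.0596) and with only the 6 libraries (adjusted p = 0.077), with p from 0.0149 to 0.155.

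The remaining 4 synthetases were not called with PBSL. EPRS (glutamate and proline) had means of 33.8 ± 1.11, 41.0 ± 0.149 and 37.3 ± 4.03, IARS of 88.8 ± 1.97, 104.3 ± 1.46 and 93.6 ± 8.75, and NARS (asparagine) of 67.3 ± 2.86, 74.8 ± 0.555 and 74.2 ± 3.76 (SD, n = 3). These 3 rose with IL-1β. The IARS call (0.23, adjusted p = 0.0157) was lost without untreated 3, IL-1β 1 or IL-1β 2 (adjusted p = 0.0535, 0.0578 and 0.0516), with p from 0.000547 to 0.0578. The NARS call (0.15, adjusted p = 0.0462) was lost without untreated 1 or 3 (adjusted p = 0.0909 and 0.169), without IL-1β 1, 2 or 3 (adjusted p = 0.115, 0.109 and 0.133), with upper-quartile rescaling (adjusted p = 0.0957) and in the fit with a replicate block (adjusted p = 0.0898), and for limma without trend (adjusted p = 0.0739), with p from 0.0131 to 0.169. With PBSL, IARS was called lower without PBSL 1 (-0.21, adjusted p = 0.0255) and with upper-quartile rescaling (adjusted p = 0.0491), with p from 0.0255 to 0.267. MARS (methionine) was the most scattered in untreated cells, at 77.0 ± 15.6 with untreated 1 the highest library of all 9 at 94.5, and it was called higher with IL-1β only without that library (0.35, adjusted p = 0.0121, in a range of 0.0121 to 0.654). Its promoter held the CARE letters.

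**Figure D4:**
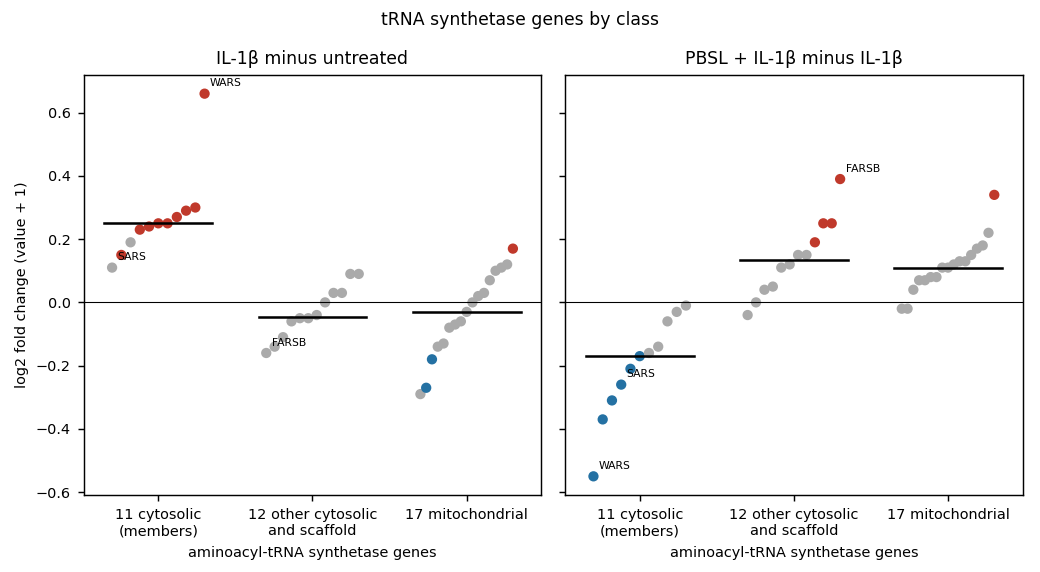
Fitted log2 fold changes of 40 genes in 3 classes of tRNA synthetase, each point 1 gene (red called higher, blue called lower, grey not called) and each bar the class median. The 11 members lie above 0 with IL-1β and below it with PBSL, with WARS at the end in both panels, while the other classes scatter around 0 with IL-1β and lie mostly above it with PBSL.

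The cytosolic synthetases outside the member list, with the scaffold proteins AIMP1, AIMP2 and EEF1E1 of the multisynthetase complex, had different counts. Of these 12, none was called with IL-1β by limma, with 0 higher and 0 lower and a median of -0.04, beside 9 of 11 higher and a median of 0.246 for the member synthetases. At an unadjusted limma p under 0.05, 0 of the 12 were higher and 1 was lower, where 4987 of all 11924 tested genes had such a p. With PBSL 4 of the 12 were higher and none was lower by limma (median 0.136), beside 0 higher and 6 lower (median -0.169) for the members. Of all 11924 tested genes, 4360 had an unadjusted limma p under 0.05 with PBSL, in either direction. Of the 12, 7 were higher and 0 lower at that threshold. The 3 with the smallest p were EEF1E1 (0.25, adjusted p = 0.00913), FARSB, a phenylalanine subunit (0.39, adjusted p = 0.0115), and FARSA, its partner (0.25, adjusted p = 0.0227). Of 17 mitochondrial synthetases, 1 was higher and 2 were lower with IL-1β (median -0.033). In the PBSL comparison 1 of the 17 was higher and none was lower (median 0.107). Of all tested genes, 16.2% were called higher and 16.0% lower with IL-1β, and 11.5% and 11.0% with PBSL. The mitochondrial shares were below these. At an unadjusted limma p under 0.05, 1 of the 17 was higher and 5 were lower with IL-1β. With PBSL 5 were higher and 0 lower at that threshold. The PBSL libraries lay wholly above the IL-1β ones for 9 of the 17, an order that 21.7% of all tested genes had. The member synthetases were chosen as part of the ATF4 response, and the difference between the classes was not tested.

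Other genes of the pathway were counted from lists, beside 16.2% higher and 16.0% lower of all tested genes with IL-1β, and 11.5% and 11.0% with PBSL. Of 17 tested among 18 further ATF4 targets, 12 rose and 1 fell with IL-1β (median 0.391), and 7 fell with PBSL (median -0.178). VEGFA, an angiogenic factor, rose with IL-1β from 49.2 ± 5.04 to 107.1 ± 1.51, GDF15, a stress-induced cytokine, from 2.74 ± 0.893 to 6.23 ± 0.335, and INHBE, an activin subunit, from 3.48 ± 0.744 to 9.46 ± 0.52 (SD, n = 3). With PBSL the smallest p-values were those of ADM2, a peptide hormone, at -0.86 (adjusted p = 0.0044), PCK2, mitochondrial PEP carboxykinase, at -0.73 (adjusted p = 0.0056), and INHBE at -0.97 (adjusted p = 0.007). VEGFA and GDF15 were not called with PBSL (0.19, adjusted p = 0.0836, and -0.00, adjusted p = 0.992). JDP2, a bZIP repressor, was the one that fell with IL-1β (-0.32, adjusted p = 0.0079) and fell again with PBSL (-0.34, adjusted p = 0.0112), and FGF21 was listed at 0 in every library.

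Of 15 genes for the eIF2 kinases, eIF2, its exchange factor eIF2B and its phosphatase subunits, 5 rose and 3 fell with IL-1β, and 2 rose and 1 fell with PBSL, shares near those of all tested genes for PBSL. PPP1R15A (GADD34), which directs a phosphatase to eIF2 and is itself an ATF4-pathway gene, rose from 25.5 ± 1.11 to 42.9 ± 0.635 (SD, n = 3) with IL-1β (0.73, adjusted p = 3.98e-06) and did not fall with PBSL, at 44.0 ± 3.73 (0.03, adjusted p = 0.746). Among the 4 kinases, EIF2AK2 (PKR), which binds double-stranded RNA and is interferon-induced, rose from 6.18 ± 0.29 to 13.9 ± 0.711 and had a PBSL change of -0.36 (adjusted p = 0.0287). EIF2AK4 (GCN2), the sensor of uncharged tRNA, fell with IL-1β from 29.3 ± 1.29 to 23.1 ± 0.933 (-0.33, adjusted p = 0.00339), EIF2AK3 (PERK) rose (0.22, adjusted p = 0.0419), and EIF2AK1 (HRI) was not called (-0.11, adjusted p = 0.358). With PBSL, EIF2B3 (0.30, adjusted p = 0.00928) and EIF2S1 (0.33, adjusted p = 0.0175) rose. Kinase transcripts do not measure kinase activity.

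Of 13 genes of the ATF6 and XBP1 arm of the unfolded protein response, 10 rose with IL-1β (median 0.321) and 9 fell with PBSL (median -0.202). HSPA5, the chaperone BiP, fell with PBSL from 358.3 ± 3.6 to 275.8 ± 32.1, HERPUD1, a degradation factor, from 49.4 ± 3.05 to 37.1 ± 3.52, and HYOU1, a chaperone, from 96.5 ± 1.14 to 79.4 ± 6.55 (SD, n = 3). Against untreated cells 7 of the 13 were called higher by limma, where 22.3% of all tested genes were. In the plot of group medians, the synthesis enzymes had the lowest PBSL medians, -0.041 in PBSL 1, -0.278 in PBSL 2 and -0.255 in PBSL 3 relative to the untreated mean, whereas the regulators stayed at 0.158 to 0.426.

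**Figure D5:**
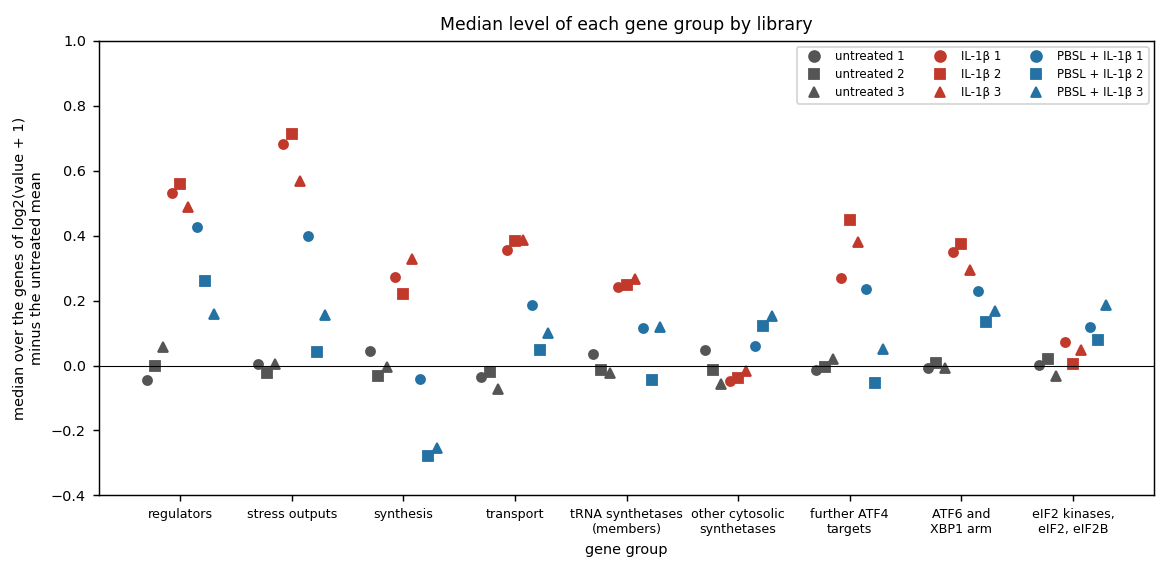
Median over the genes of each group of log2(value + 1) minus the untreated mean (vertical axis), for 9 groups (horizontal axis) and 9 libraries (grey untreated, red IL-1β, blue PBSL plus IL-1β, with circle, square and triangle for libraries 1 to 3). The red points are the highest in the 5 member groups, the further ATF4 targets and the ATF6 and XBP1 arm, and PBSL 1 is the highest blue point in most of these.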

How the data were processed

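RNA from 9 SW1353 libraries was measured after an mRNA library preparation with an MGIEasy directional kit, per the labels. The submitters' processing notes name Trim Galore, STAR, HTSeq and hg38, without versions. The deposited signal values are not whole numbers. Nothing in the sources used here says whether they are FPKM or TPM, how the authors made them from counts, or whether counting used strand. They fell with transcript length: in genes under 0.5 in every library, split into 3 classes by length, the median smallest non-zero value was 0.047 in the shortest class and 0.018 in the longest. Reads per value, and so depth, are unknown, and no intervals for counting error are given.

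The fit took the 11924 of 19389 genes that reached 1 in 3 or more libraries. limma 3.58.1 (R 4.3.3), with a trend of variance on mean, was fitted to log2(value + 1) in 1 model with a mean per group, 9 libraries and 6 residual degrees of freedom. Each adjusted p below is limma's, 2-sided, with Benjamini-Hochberg adjustment over all 11924 genes, and genes were called at an adjusted p under 0.05. The procedure was tested on simulated data. With 3 libraries a group, the smallest p of an exact permutation test is 0.1. The labels do not say that replicate numbers pair the libraries, and no block was used.

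The members and gene lists were chosen with earlier results of these data known. Values in every library are given for 29 of the 36 members: up to 4 called members with the smallest p in each role group and comparison, and ATF4, DDIT3, ASNS and TRIB3. Other lists are named by up to 3 genes with the smallest p per comparison, and further genes were named after their values were seen. Positions come from GENCODE 29 and promoters from RefSeq (GRCh38.p14), with old symbols matched through RefSeq synonyms. Alternatives covered the pseudocount, the filter, rescaling, the libraries in the model, a replicate block, the variance trend and leaving out each library. Python 3.11.15 with pandas 2.3.3 and numpy 2.4.6 handled the tables. Results for some genes of the comparison lists are not reported here.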

Additional observations from a re-analysis of the deposited data

How the results depend on the processing

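Depth is unknown, the groups hold 3 libraries, and no sources say that these are separate cultures. No member that was called reversed its direction under any of the 18 alternatives run. edgeR and DESeq2, which need counts, were not run because the values are not counts. Of the called members, 23 of 30 with IL-1β, 17 of 26 with PBSL and 7 of 12 for PBSL against untreated cells were called under every alternative in which they were tested, CBS being untested with a minimum of 5. In PBSL against untreated cells, members lower numbered 2 with no filter, 7 with upper-quartile rescaling and 1 with only the 6 libraries of the comparison, against 4. Leaving out 1 library gave 2 to 9 lower and 7 to 15 higher members there, with 32.4% to 45.4% of all tested genes called. It gave 17 to 26 lower members with PBSL against IL-1β (1304 to 3910 called of all genes). With IL-1β 23 to 30 members were higher, with 24.7% to 35.9% of all tested genes called. With no filter ALDH1L2 and PSAT1 (IL-1β) and DDIT3, NUPR1 and PYCR1 (PBSL) were not called. The cause was not tested. With a replicate block, 28 members were higher with IL-1β and 22 lower with PBSL, beside 29.2% and 17.9% of all tested genes called. The numbers share no stated source, and deviations of same-numbered libraries correlated at -0.225 to 0.068, so the block is no paired analysis. Upper-quartile rescaling moved the median of all genes to no more than -0.033, and 27 members were then higher with IL-1β. In that fit 33.6% of all tested genes were called with IL-1β.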
